A study of Mus musculus with 24 samples.

Results

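The genes described here were the microRNA genes that reached a readable array level in the lung of newborn, juvenile or adult mice. A microRNA gene was taken from each array row that named exactly 1 gene whose symbol begins with Mirlet or with Mir and a digit. It was kept where the mean log2 intensity was 5 or more in at least 1 of the 8 groups, with the brightest row standing for a gene. This gave 73 genes of the 300 microRNA genes with such a row, among 19938 genes in all. The choice therefore used the intensities themselves, and 227 microRNA genes did not reach the threshold. Just inside it lay *Mir185* (highest group mean 5.01), *Mir92b* (5.01) and *Mir423* (5.02), and just outside it *Mir451a* (4.95), *Mir200b* (4.97) and *Mir23a* (4.99). The rows of *Mir23b* and *Mir27b* name 2 genes and so lie outside the rule.

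The 24 samples were RNA of the left lung lobe, each read on 1 whole-transcript Affymetrix array (Mouse Gene ST 1.0). Male mice of strain C57Bl/6N Tac were either wild type (WT) or carried the *Scnn1b* transgene (*Scnn1b*-Tg), and were taken at postnatal day (PND) 0, 3, 10 or 42, with 3 arrays in each of the 8 groups. The transgene is driven in the club cells of the airways, where excess sodium channel subunit dehydrates the airway surface, and mice of both genotypes were untreated and specific-pathogen-free. The labels name 1 animal for *Scnn1b*-Tg PND 42 replicate 3 and 2 animals for every other array, whereas the study's methods describe pools of 3 mice, and which of these holds is not settled. An array stands for a pool in either account, except that *Scnn1b*-Tg PND 42 replicate 3 may be 1 animal, and p-values measure the spread between such samples.

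A microRNA is cut in steps from a longer RNA. The nuclear enzyme Drosha with Dgcr8 frees a hairpin from the primary transcript, exportin 5 carries it out, Dicer cuts the mature strand free, and an Argonaute protein uses the strand's seed (bases 2 to 8) to find target mRNAs, which Tnrc6 proteins help to silence. Many hairpins lie inside introns of a protein-coding or noncoding host gene, and some are made several at a time from 1 transcript. The column-purified RNA used here holds mainly longer RNA, so an array row for a microRNA gene reads precursor or primary transcript at least in part, and the levels below are not levels of mature microRNAs.

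RefSeq (build GRCm38.p6) gave mature sequences for 59 of the 73 genes. The sequences below are those of genes on which the results turn, with the seed in capitals and positions in that build. The first 8 lines show 3 seed groups, in each of which genes on different chromosomes share all of bases 2 to 8.
miR-15a-5p, *Mir15a*, chr14:61632075-61632096, minus strand: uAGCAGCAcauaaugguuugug
miR-16-5p, *Mir16-1*, chr14:61631936-61631957, minus strand: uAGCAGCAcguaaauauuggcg
miR-15b-5p, *Mir15b*, chr3:69009775-69009796, plus strand: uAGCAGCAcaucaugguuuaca
let-7d-5p, *Mirlet7d*, chr13:48536078-48536099, minus strand: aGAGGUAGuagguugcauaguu
let-7f-5p, *Mirlet7f-2*, chrX:151912353-151912374, plus strand: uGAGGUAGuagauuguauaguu
miR-98-5p, *Mir98*, chrX:151913229-151913250, plus strand: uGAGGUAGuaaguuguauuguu
miR-181b-5p, *Mir181b-1*, chr1:137966650-137966673, plus strand: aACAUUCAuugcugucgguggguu
miR-181d-5p, *Mir181d*, chr8:84178759-84178781, minus strand: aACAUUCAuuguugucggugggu
The next lines show strands of genes called between ages, among them 1 strand of each of 5 genes of 1 region of chromosome 12, no 2 of which share a seed.
miR-126a-3p, *Mir126a*, chr2:26591402-26591423, plus strand: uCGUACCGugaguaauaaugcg
miR-27a-3p, *Mir27a*, chr8:84208727-84208747, plus strand: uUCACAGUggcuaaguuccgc
miR-6516-5p, *Mir6516*, chr11:117077370-117077391, plus strand: uUUGCAGUaacagguguggaca
miR-144-3p, *Mir144*, chr11:78073047-78073066, plus strand: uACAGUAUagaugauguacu
miR-665-3p, *Mir665*, chr12:109586368-109586387, plus strand: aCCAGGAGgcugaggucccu
miR-329-3p, *Mir329*, chr12:109713541-109713562, plus strand: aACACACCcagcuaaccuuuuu
miR-679-5p, *Mir679*, chr12:109715587-109715608, plus strand: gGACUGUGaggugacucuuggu
miR-666-5p, *Mir666*, chr12:109717103-109717124, plus strand: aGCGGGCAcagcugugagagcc
miR-382-5p, *Mir382*, chr12:109733781-109733802, plus strand: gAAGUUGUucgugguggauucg
The last 3 lines are the hairpins of the *Mir680* genes, which lie on 3 chromosomes and hold the same 21-base mature strand, here in capitals.
*Mir680-1* hairpin, chr6:129691535-129691643, plus strand: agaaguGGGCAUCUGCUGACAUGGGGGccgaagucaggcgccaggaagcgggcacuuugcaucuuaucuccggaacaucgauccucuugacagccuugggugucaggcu
*Mir680-2* hairpin, chrX:144297790-144297899, plus strand: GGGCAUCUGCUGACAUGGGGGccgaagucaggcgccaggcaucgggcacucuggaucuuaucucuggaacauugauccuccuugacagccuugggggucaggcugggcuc
*Mir680-3* hairpin, chr12:35194811-35194897, minus strand: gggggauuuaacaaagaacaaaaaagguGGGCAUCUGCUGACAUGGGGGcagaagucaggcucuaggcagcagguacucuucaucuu
The hairpins of *Mir680-1* and *Mir680-2* shared an unbroken run of 39 bases, and *Mir680-3* shared runs of 24 and 22 bases with them, and whether the array probes tell the 3 genes apart was not tested.

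Before the results, the arrays themselves were compared. Array medians over all rows lay between 4.79 and 4.996, and no 2 arrays held identical values. The mean correlation of an array with the other 2 of its group was between 0.964 and 0.989 over all rows, except for *Scnn1b*-Tg PND 42 replicates 1 (0.937) and 3 (0.940), and these same arrays were also the lowest over the 73 genes (0.720 and 0.717). *Scnn1b* was higher in *Scnn1b*-Tg at every age, by 2.93 ± 0.26 (SE) to 3.29 ± 0.26 on the log2 scale, and 6 of 6 lung epithelial markers were measured, with a mean level of 9.96 to 10.24 at WT PND 0 and 10.19 to 10.32 at *Scnn1b*-Tg PND 42.

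The median group mean of the 73 genes lay between 4.96 and 5.14 log2 in the 8 groups, against 3.91 to 3.99 for all 300 microRNA genes and 5.08 to 5.32 for all 21789 rows with 1 gene. The brightest over all 24 arrays were *Mir692-1* (8.65), *Mir346* (7.52), *Mir6516* (7.16), *Mir341* (6.85) and *Mir680-3* (6.75), followed by *Mir7-1* (6.45), *Mir328* (6.01), *Mir320* (5.85), *Mir494* (5.79) and *Mir673* (5.75). Intensities of different probes are not comparable as amounts of RNA, so this order is one of array brightness. Only 16 of the 73 genes reached 5 in all 8 groups, 12 did so in a single group and 14 in 2 groups.

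Age, not genotype, accounted for most of the variation. Of the summed variance of the 73 genes, 70.0% lay between ages, 4.96% between genotypes at an age and 25.0% among arrays of a group. This was close to the 72.9%, 7.32% and 19.8% of all rows. The genotype shares also hold spread among arrays, since each group mean rests on 3 arrays, and do not measure genotype alone. The median SD within groups was 0.234 log2, above the 0.171 of all rows. In WT the lowest group mean was at PND 0 for 35 of the 73 genes (47.9%, beside 38.0% of all rows) and at PND 3 for 20 (27.4%, beside 15.96%), while 22 were highest at PND 0 (30.1%, beside 34.3%). In *Scnn1b*-Tg, 32 were lowest at PND 0 (43.8%, beside 39.0%), 14 were lowest at PND 3 (19.2%, beside 15.3%) and 26 were highest at PND 0 (35.6%, beside 34.0%). The heat map orders the genes by their change over the first 3 days, so its PND 0 columns stand apart in part through that order.

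**Figure D1:**
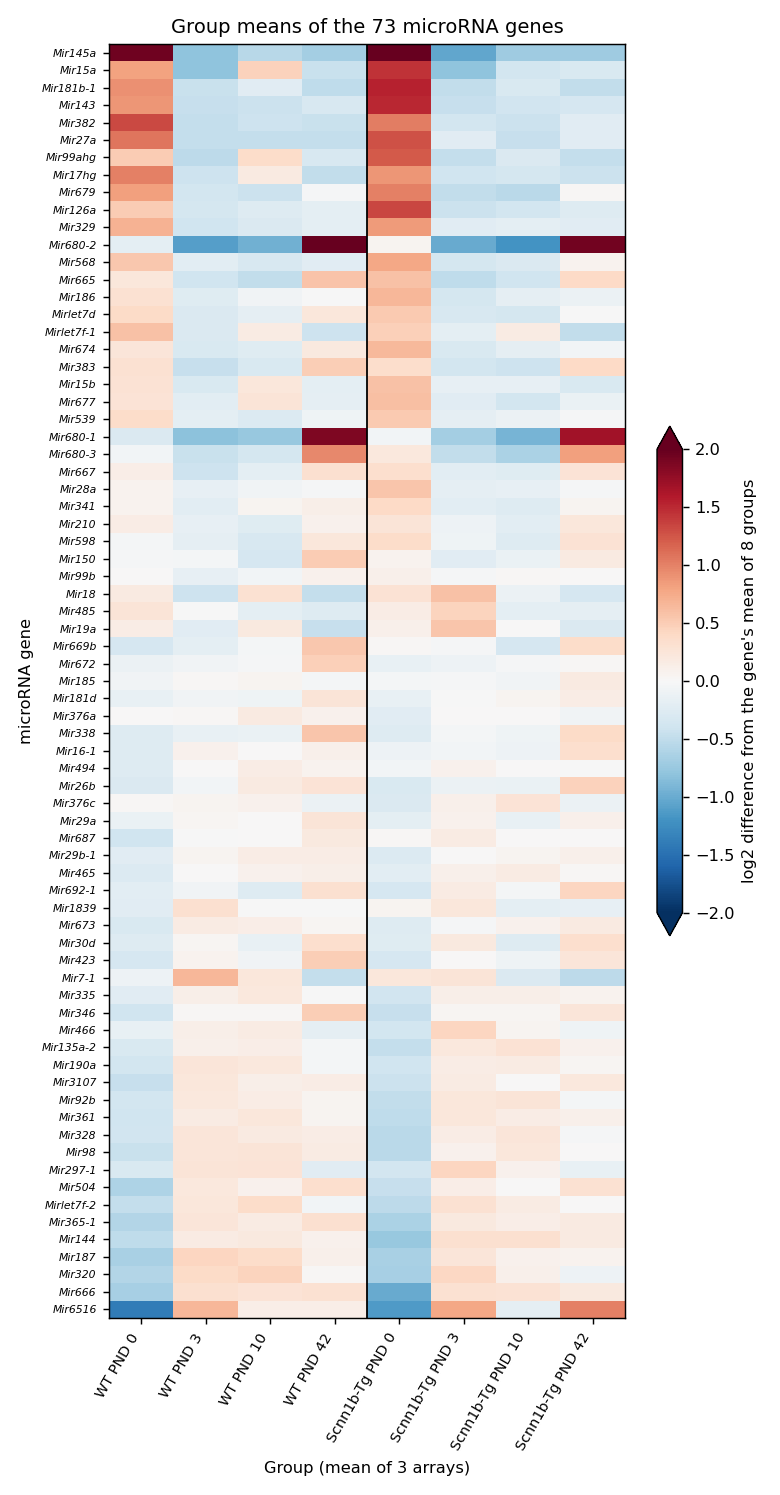
Group means of the 73 microRNA genes (rows) in the 8 groups (columns, each the mean of 3 arrays), drawn as the log2 difference from each gene's mean of the 8 groups and ordered by the change from PND 0 to PND 3; the black line parts WT from *Scnn1b*-Tg. The genes at the top, led by *Mir145a*, are high at PND 0 in both genotypes, *Mir6516* at the foot is low there, and the *Mir680* rows are high at PND 42.

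The step from PND 0 to PND 3 covered the first days after birth. A gene was called changed where the limma test gave a Benjamini-Hochberg adjusted p of 0.05 or less over all 21789 rows and a change of at least 2-fold. The WT arrays gave 12 calls among the 73 genes, 2 higher and 10 lower at PND 3, beside 9.75% of all rows called (1.96% higher and 7.79% lower). The *Scnn1b*-Tg arrays gave 18 calls, 4 higher and 14 lower, beside 10.3% of all rows (2.26% higher and 8% lower). All arrays of 1 age lay above all those of the other for 52 of the 73 genes in WT and 55 in *Scnn1b*-Tg, beside 59.6% and 61.7% of all rows. Because members were chosen on these intensities, this count is a description, and a fairer one uses genes that the arrays of the other genotype alone would have chosen. Of 69 genes chosen on *Scnn1b*-Tg arrays, WT arrays called 2 higher and 9 lower (15.9%), beside 16% of all rows that reached 5 in any group. Of 64 genes chosen on WT arrays, *Scnn1b*-Tg arrays called 3 higher and 11 lower (21.9%), beside 16.8%. The rows set beside them were chosen on all 8 groups, the tested ones among them, so these shares rest on unlike choices. The median change over the 73 genes was 0.05 log2 in WT and 0.14 in *Scnn1b*-Tg, beside 0.06 and 0.07 for all rows. Neither share is read as particular to microRNA genes. The split of calls moved with the scaling of the arrays. Repeated quantile normalization gave 4 higher and 9 lower calls in WT and 5 and 10 in *Scnn1b*-Tg. Subtracting array medians gave 4 and 8 in WT and 5 and 10 in *Scnn1b*-Tg, and moved the median of all rows to 0.157 log2 in WT and 0.209 in *Scnn1b*-Tg. In the tests of single genes that follow, an adjusted p is printed only where the other genotype's arrays would have chosen the gene. Other changes are given as a description. That choice still favours genes high at the same age in both genotypes. *Mir145a*, *Mir27a*, *Mir329*, *Mir679* and *Mir17hg* reached 5 at PND 0 alone, and *Mir680-1* at PND 42 alone. *Mir143*, *Mir181b-1* and *Mir126a* did so at *Scnn1b*-Tg PND 0 alone, and *Mir382* at WT PND 0 alone. *Mir144* did so at *Scnn1b*-Tg PND 3 and PND 10 alone. For these genes the choice favoured the direction of the change, and the adjusted p only sets its size beside the spread.

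*Mir145a* and *Mir143*, neighbours on chromosome 18 inside the noncoding gene *Carmn* and known as microRNAs of smooth muscle, were lower at PND 3, and the fall of *Mir145a* was the largest of the 73 in both genotypes. The intensity of *Mir145a* was 6.14, 6.47 and 6.80 in the 3 WT arrays at PND 0 and 3.58, 3.65 and 3.91 at PND 3. In *Scnn1b*-Tg it was 6.38, 7.14 and 7.73 at PND 0 and 3.53, 3.49 and 3.42 at PND 3. The ages did not overlap in either genotype. The later groups stayed near the PND 3 level, with means of 3.97 ± 0.14 (SD, n = 3) at WT PND 10 and 3.84 ± 0.17 at WT PND 42. From PND 3 on these levels lay close to the WT median of all microRNA genes (3.93 to 3.99), most of them below the threshold. A further fall of *Mir145a* may therefore not be readable. The change of *Mir145a* was -2.76 ± 0.23 log2 (SE; adjusted p = 1.53e-08) in WT and -3.60 ± 0.23 (adjusted p = 5.00e-10) in *Scnn1b*-Tg. *Mir143* read 4.39, 4.65 and 5.10 at WT PND 0 and 3.31, 3.45 and 3.37 at WT PND 3, a change of -1.34 ± 0.17 (adjusted p = 1.36e-06). In *Scnn1b*-Tg, the only genotype in which *Mir143* reached 5, the values were 4.87, 5.50 and 5.67 at PND 0 and 3.19, 3.38 and 3.55 at PND 3, which differed by -1.98 ± 0.17. Every PND 0 array of *Mir143* lay above every PND 3 array in both genotypes, and its PND 3 arrays lay below the median of all microRNA genes. Of 6 smooth muscle markers none was called in this interval in either genotype. Their mean level per array was 7.58 to 8.33 at WT PND 0, 8.22 to 8.46 at WT PND 3, 7.79 to 8.17 at *Scnn1b*-Tg PND 0 and 7.96 to 8.31 at *Scnn1b*-Tg PND 3, and their part in these changes was not tested. In whole lung, fewer cells of a type and less RNA per cell cannot be told apart.

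*Mir126a*, which lies in the endothelial gene *Egfl7* and acts in blood vessel growth, was high only at birth. It read 4.10, 4.34 and 4.35 at WT PND 0 and 3.51, 3.37 and 3.36 at WT PND 3. In *Scnn1b*-Tg the values were 4.82, 5.13 and 5.35 at PND 0 and 3.40, 3.26 and 3.35 at PND 3. From PND 3 on every array of both genotypes lay below 4, where the median of all microRNA genes was 3.93 to 3.99. The WT change was -0.85 ± 0.11 (adjusted p = 2.06e-06), under 2-fold, and the *Scnn1b*-Tg change was -1.77 ± 0.11. *Mir126a* entered the list through *Scnn1b*-Tg PND 0 alone, so the choice favoured a fall. *Egfl7*, a secreted factor of endothelium, changed by -0.48 ± 0.13 in WT and -0.90 ± 0.13 in *Scnn1b*-Tg. Among 4 endothelial markers 1 fell in WT and 2 fell in *Scnn1b*-Tg, and their mean level per array was 9.56 to 9.86 at WT PND 0, 8.68 to 8.87 at WT PND 3, 9.55 to 9.72 at *Scnn1b*-Tg PND 0 and 8.61 to 8.90 at *Scnn1b*-Tg PND 3. Their part in the change of *Mir126a* was not tested.

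**Figure D2:**
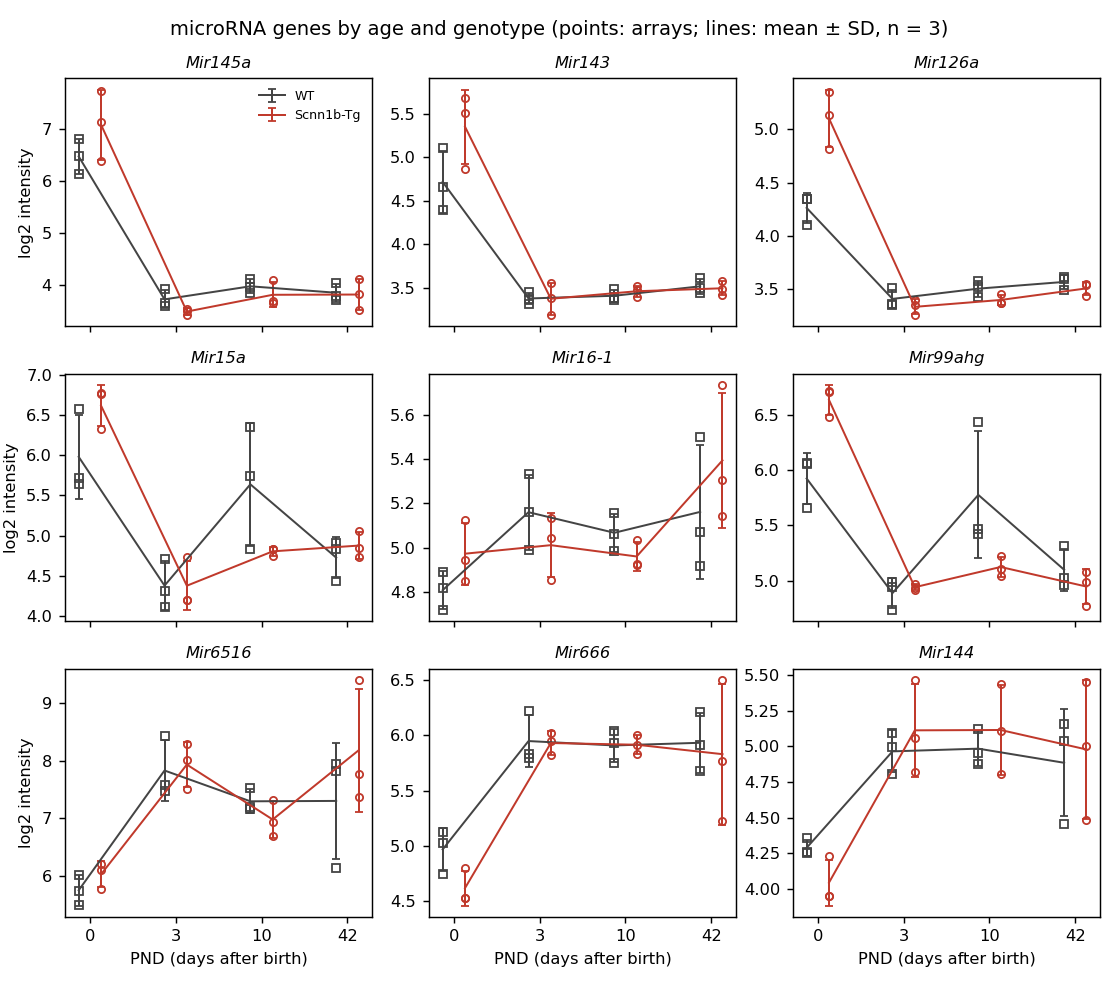
log2 intensity (vertical axes, which start and end at different values) of 9 microRNA genes at PND 0, 3, 10 and 42 in WT (squares) and *Scnn1b*-Tg (circles); each point is an array, and lines join group means with SD bars (n = 3). The first 4 genes and *Mir99ahg* are highest at PND 0, *Mir16-1* stays between 4.72 and 5.74, and the 3 genes of the lowest row are lowest at PND 0.

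*Mir15a* and *Mir16-1* are hairpins of 1 noncoding transcript, *Dleu2*, with the same seed and a known role in holding back cell division. *Mir15a* was called and *Mir16-1* was not, and the difference between the 2 rows was not tested. *Mir15a* read 5.65, 6.58 and 5.72 at WT PND 0 and 4.10, 4.31 and 4.71 at WT PND 3, and 6.77, 6.77 and 6.33 at PND 0 and 4.73, 4.20 and 4.20 at PND 3 in *Scnn1b*-Tg. The ages were apart in both genotypes, with changes of -1.61 ± 0.28 (adjusted p = 8.57e-05) and -2.25 ± 0.28 (adjusted p = 1.40e-06). *Mir16-1* read 4.72, 4.89 and 4.82 at PND 0 and 5.16, 4.99 and 5.33 at PND 3 in WT, a change of 0.35 ± 0.15 (adjusted p = 0.0534), and changed by 0.04 ± 0.15 (adjusted p = 0.842) in *Scnn1b*-Tg. *Dleu2* itself was not called, with 0.00 ± 0.13 (adjusted p = 0.986) in WT and 0.08 ± 0.13 (adjusted p = 0.642) in *Scnn1b*-Tg. *Mir15b*, which carries the same seed on chromosome 3, changed by -0.59 ± 0.27 (adjusted p = 0.0795) in WT and -0.74 ± 0.27 (adjusted p = 0.0279) in *Scnn1b*-Tg, under 2-fold in both.

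The other genes that fell came from several transcripts. *Mir27a*, known for its role in fat cell differentiation, read 6.29, 6.27 and 5.80 at WT PND 0 and 4.32, 4.78 and 4.61 at WT PND 3, a change of -1.55 ± 0.19 (adjusted p = 1.01e-06). The *Scnn1b*-Tg change of *Mir27a* was -1.51 ± 0.19 (adjusted p = 1.19e-06). *Mir181b-1*, whose family acts in lymphocyte development, read 4.73, 5.37 and 4.76 at PND 0 and 3.56, 3.56 and 3.66 at PND 3 in WT, a change of -1.36 ± 0.15 (adjusted p = 4.46e-07). These PND 0 arrays all lay above the PND 3 arrays. *Mir181d*, which shares its seed but lies on another chromosome, changed by 0.08 ± 0.13 in WT and 0.14 ± 0.13 in *Scnn1b*-Tg, with no call in either. The noncoding gene *Mir99ahg*, host of other microRNAs, changed by -1.04 ± 0.19 (adjusted p = 0.000115) in WT and -1.70 ± 0.19 (adjusted p = 2.69e-07) in *Scnn1b*-Tg on its brightest row, and by -0.36 and -0.68 on the mean of its rows, so the 2-fold call rests on that row. *Mir99ahg* in WT also missed 2-fold where quantile normalization was repeated (-0.80), where array medians were subtracted (-0.95), and without WT PND 0 replicate 2 (-0.97), without replicate 3 (-0.97) and without WT PND 3 replicate 2 (-0.96).

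*Mir17hg* is the primary transcript of a cluster known to favour cell division, and 2 microRNAs of that cluster, *Mir18* and *Mir19a*, were also among the 73. *Mir17hg* read 5.52, 5.21 and 4.67 at WT PND 0 and 3.46, 3.56 and 4.12 at WT PND 3, and changed by -1.42 ± 0.24 (adjusted p = 4.58e-05) in WT and -1.29 ± 0.24 (adjusted p = 0.000132) in *Scnn1b*-Tg. *Mir18* changed by -0.60 ± 0.43 in WT and 0.30 ± 0.43 in *Scnn1b*-Tg, and *Mir19a* by -0.37 ± 0.43 and 0.45 ± 0.43, with no call for either. The host transcript passed the test and its measured hairpins did not, and the difference between these rows was not tested. Of 4 markers of dividing cells, 2 rose in WT and 1 rose in *Scnn1b*-Tg over the same days. Their mean level per array was 6.26 to 6.94 at WT PND 0 and 6.54 to 7.87 at WT PND 3, and their part in the change of *Mir17hg* was not tested.

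In *Scnn1b*-Tg 4 further genes were called lower, for which the WT change went the same way without passing 2-fold. *Mir568* changed by -1.12 ± 0.21 (adjusted p = 0.000153) in *Scnn1b*-Tg and -0.75 ± 0.21 (adjusted p = 0.00578) in WT. *Mir186*, inside the splicing factor gene *Zranb2*, changed by -1.01 ± 0.14 (adjusted p = 7.02e-06) and -0.55 ± 0.14 (adjusted p = 0.00365). *Mir665*, on chromosome 12, changed by -1.09 ± 0.18 (adjusted p = 3.84e-05) and -0.62 ± 0.18 (adjusted p = 0.00753), and *Mir126a* is given above. The calls of *Mir568*, *Mir186* and *Mir665* were lost where quantile normalization was repeated and where array medians were subtracted. None of the genotype differences of these changes passed the test, as given below.

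The genes called higher over the first 3 days were *Mir6516* in both genotypes, *Mir187* in WT, and *Mir320*, *Mir144* and *Mir666* in *Scnn1b*-Tg. *Mir6516*, which lies inside the small nucleolar RNA host *Snhg20*, read 5.50, 6.03 and 5.75 at WT PND 0 and 7.48, 7.58 and 8.43 at WT PND 3. It read 6.11, 6.21 and 5.78 at PND 0 and 8.28, 8.01 and 7.50 at PND 3 in *Scnn1b*-Tg. The ages did not overlap, and the changes were 2.07 ± 0.43 (adjusted p = 0.000448) and 1.89 ± 0.43 (adjusted p = 0.000975). *Mir187* was called in WT, where it read 4.91, 4.86 and 4.97 at PND 0 and 5.87, 6.11 and 5.99 at PND 3 and changed by 1.07 ± 0.16 (adjusted p = 1.32e-05), and it changed by 0.90 ± 0.16 (adjusted p = 0.000101) in *Scnn1b*-Tg. *Mir320*, whose hairpin is known to bypass Drosha, read 5.16, 5.15 and 5.24 at PND 0 and 6.24, 6.39 and 6.17 at PND 3 in *Scnn1b*-Tg and changed by 1.08 ± 0.19 (adjusted p = 7.20e-05), beside 0.97 ± 0.19 (adjusted p = 0.000247) in WT. *Mir187* and *Mir320* thus lay close to 2-fold in both genotypes, on either side of it. *Mir144*, an erythroid microRNA, read 4.23, 3.95 and 3.95 at *Scnn1b*-Tg PND 0 and 5.46, 4.82 and 5.06 at PND 3, a difference of 1.07 ± 0.21, and changed by 0.68 ± 0.21 (adjusted p = 0.0126) in WT. *Mir144* reached the threshold at *Scnn1b*-Tg PND 3 and PND 10 alone, so the choice favoured a rise. Without *Scnn1b*-Tg PND 3 replicate 1 the *Mir144* difference in *Scnn1b*-Tg was 0.89. None of 3 measured erythroid markers was called over these days. Their mean level per array was 6.51 to 6.84 at *Scnn1b*-Tg PND 0 and 6.28 to 7.05 at PND 3, and their part in the *Mir144* values was not tested.

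Of the 73 genes, 13 lie on chromosome 12 within 163 kb, in the imprinted region whose maternal transcripts include *Meg3* and *Rian*. By sign alone they moved in both directions, with 5 higher and 8 lower in WT and 6 higher and 7 lower in *Scnn1b*-Tg. In WT 3 fell and 0 rose past the test, beside 7.79% lower and 1.96% higher of all rows. In *Scnn1b*-Tg 4 fell and 1 rose, beside 8% and 2.26%. *Mir382* read 6.83, 4.93 and 4.05 at WT PND 0 and 3.28, 3.65 and 3.49 at WT PND 3, a difference of -1.80 ± 0.41, and in *Scnn1b*-Tg it read 5.65, 4.65 and 4.61 at PND 0 and 3.56, 3.72 and 3.48 at PND 3 and changed by -1.38 ± 0.41 (adjusted p = 0.00863). *Mir329* read 6.24, 4.70 and 4.92 at PND 0 and 4.12, 4.31 and 4.15 at PND 3 in WT, and changed by -1.09 ± 0.26 (adjusted p = 0.00182) in WT and -1.07 ± 0.26 (adjusted p = 0.00211) in *Scnn1b*-Tg. *Mir679* read 6.30, 4.88 and 4.76 at PND 0 and 4.07, 3.91 and 4.40 at PND 3 in WT, and changed by -1.19 ± 0.39 (adjusted p = 0.017) and -1.49 ± 0.39 (adjusted p = 0.00351). In all 3 genes WT PND 0 replicate 1 was the highest array of its group by over 1 log2 unit. Without it the WT changes were -1.02 for *Mir382*, -0.62 for *Mir329* (adjusted p = 0.0114) and -0.69 for *Mir679* (adjusted p = 0.14). The WT calls of *Mir329* and *Mir679* thus rested on that array, and that of *Mir679* was also lost without WT PND 3 replicate 2 (-1.08, adjusted p = 0.0524). In *Scnn1b*-Tg, *Mir329* likewise missed 2-fold without *Scnn1b*-Tg PND 0 replicate 1 (-0.82) and under both other scalings, while *Mir679* kept its call without that array (-1.25). For *Mir382* in *Scnn1b*-Tg the call was lost without *Scnn1b*-Tg PND 0 replicate 1 (-1.04, adjusted p = 0.059).

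*Mir666*, between *Mir679* and *Mir667* in the order along the chromosome, went the other way. It read 5.13, 5.03 and 4.75 at WT PND 0 and 5.79, 5.83 and 6.22 at WT PND 3, and 4.80, 4.53 and 4.53 at PND 0 and 5.95, 6.02 and 5.82 at PND 3 in *Scnn1b*-Tg. The ages were apart in both genotypes, with changes of 0.98 ± 0.21 (adjusted p = 0.000683), just under 2-fold, and 1.31 ± 0.21 (adjusted p = 2.90e-05). The long transcripts of the region were called lower, with *Meg3* at -4.63 ± 0.27 (adjusted p = 1.12e-09) in WT and *Rian* at -1.64 ± 0.33 (adjusted p = 0.000315). *Mir341*, which lies inside *Rian*, changed by -0.29 ± 0.15 (adjusted p = 0.124) in WT and -0.62 ± 0.15 (adjusted p = 0.00246) in *Scnn1b*-Tg.

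**Figure D3:**
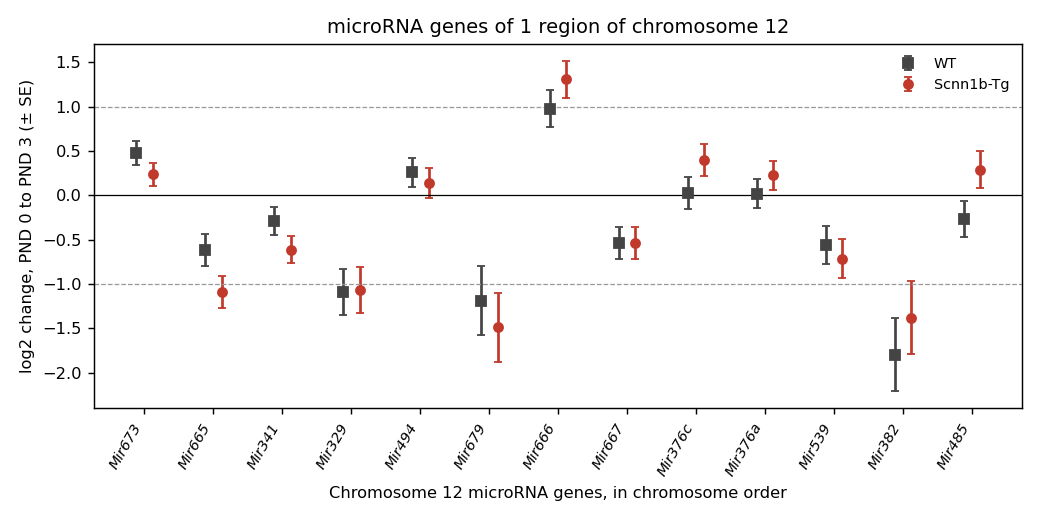
log2 change from PND 0 to PND 3 (vertical axis, with SE bars from the fit) of 13 microRNA genes in their order along chromosome 12, in WT (squares) and *Scnn1b*-Tg (circles); dashed lines mark 2-fold. *Mir329*, *Mir679* and *Mir382* lie below the lower line in both genotypes, while *Mir666* lies at 0.98 in WT and 1.31 in *Scnn1b*-Tg.

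Host genes and their microRNAs could be set side by side in 19 pairs, where the host is on the same strand and has a row of its own. Of the 17 hosts, 4 fell in WT and 5 fell in *Scnn1b*-Tg past the test, and none rose. Of all rows, 7.79% fell and 1.96% rose in WT, and 8% fell and 2.26% rose in *Scnn1b*-Tg. In no pair did host and microRNA both pass. Only 1 of the 19 microRNA genes passed in WT and 3 in *Scnn1b*-Tg, beside 9.75% and 10.3% of all rows, so this says little about hosts and microRNAs together. In WT 8 of the 19 pairs had changes of the same sign, 10 had a microRNA that was higher beside a host that was lower, and 1 had the reverse, and in *Scnn1b*-Tg these counts were 9, 9 and 1. *Huwe1*, a ubiquitin ligase that holds both *Mir98* and *Mirlet7f-2*, went down in WT arrays, with a log2 change of -1.79 ± 0.16 (adjusted p = 4.11e-08), whereas *Mir98* changed by 0.69 ± 0.20 (adjusted p = 0.00932) and *Mirlet7f-2* by 0.71 ± 0.17 (adjusted p = 0.00172). In *Scnn1b*-Tg, *Huwe1* changed by -2.04 ± 0.16 (adjusted p = 5.01e-09), *Mir98* by 0.64 ± 0.20 (adjusted p = 0.0137) and *Mirlet7f-2* by 0.83 ± 0.17 (adjusted p = 0.000408). The microRNA genes inside *Huwe1* thus had positive changes under 2-fold where the host was called lower. *Lpp*, a protein of cell contacts, changed by -2.72 ± 0.22 (adjusted p = 9.27e-09) in WT, beside -0.23 ± 0.12 for *Mir28a* inside it. *Spaca6*, needed for sperm-egg fusion, changed by -1.60 ± 0.15 (adjusted p = 5.92e-08) in WT beside -0.18 ± 0.12 for *Mir99b*. In *Scnn1b*-Tg, *Lpp* changed by -2.64 ± 0.22 beside -0.73 ± 0.12 for *Mir28a*, and *Spaca6* by -2.15 ± 0.15 beside -0.12 ± 0.12 for *Mir99b*.

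**Figure D4:**
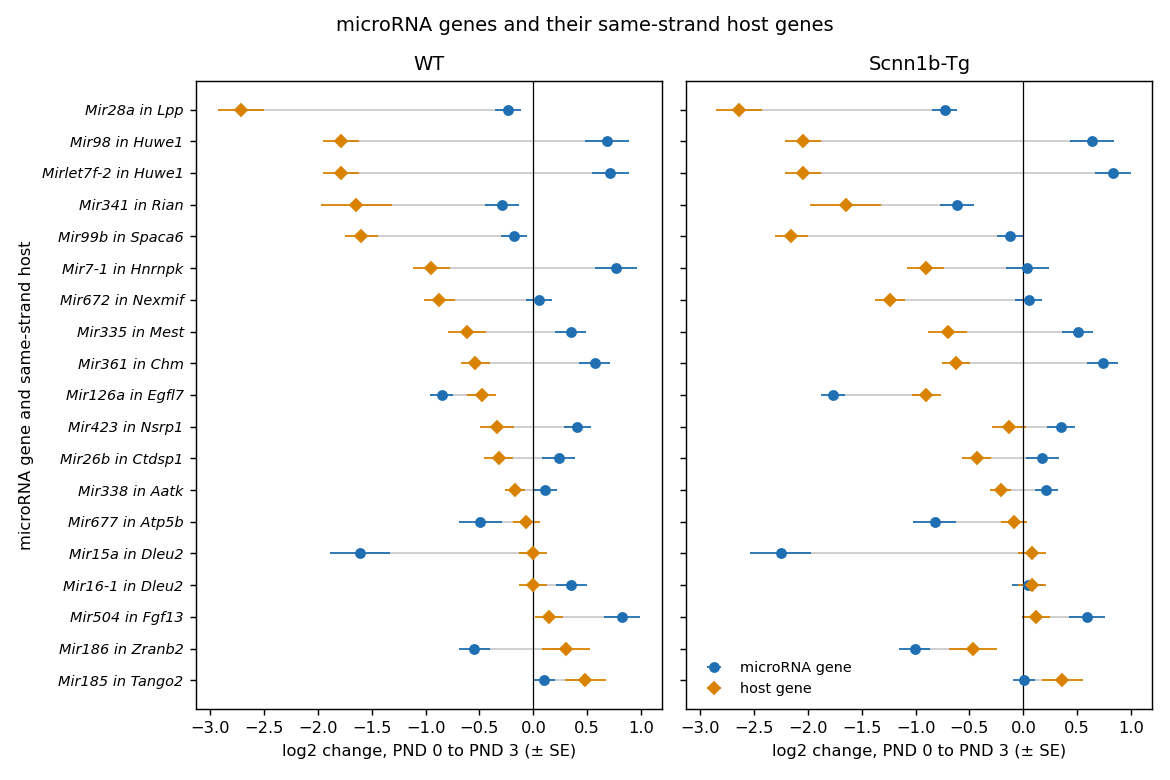
log2 change from PND 0 to PND 3 (horizontal axis, with SE bars from the fit) of 19 microRNA genes (blue circles) and their same-strand host genes (orange diamonds), in WT (left) and *Scnn1b*-Tg (right). In the upper rows the hosts lie far to the left, at -2.72 for *Lpp* and -1.79 for *Huwe1* in WT. Their microRNA genes lie nearer to 0 or above it, but in *Scnn1b*-Tg *Mir28a* lies at -0.73 and *Mir341* at -0.62. In the *Dleu2* rows *Mir15a* lies far left of its host.

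The let-7 seed group, known for curbing growth genes in maturing tissue, was split. *Mirlet7d* and *Mirlet7f-1*, neighbours on chromosome 13, changed by -0.68 ± 0.14 (adjusted p = 0.000555) and -0.87 ± 0.22 (adjusted p = 0.00294) in WT, and by -0.86 ± 0.14 (adjusted p = 4.52e-05) and -0.66 ± 0.22 (adjusted p = 0.0178) in *Scnn1b*-Tg. *Mir98* and *Mirlet7f-2* on the X chromosome, given above, had positive changes. *Mirlet7f-1* and *Mirlet7f-2* encode the identical let-7f-5p strand, and none of the 4 genes passed 2-fold in either genotype. *Lin28b*, an RNA-binding protein that blocks let-7 maturation, read 3.44, 3.56 and 3.64 at WT PND 0 and changed by 0.04 ± 0.11 (adjusted p = 0.771). These values lay below the WT PND 0 medians of all rows (5.32) and of all microRNA genes (3.91). Little can be read from a lack of change at that level.

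The proteins that make and use microRNAs were followed as a list of 30 genes, of which 29 had a row. Between PND 0 and PND 3, 1 rose and 11 fell in WT, with a list median of -0.93 log2, and 0 rose and 13 fell in *Scnn1b*-Tg, with a median of -0.90, beside medians of 0.06 and 0.07 over all rows. The gene called higher in WT was *Ran*, the GTPase that drives export from the nucleus, at 1.03 ± 0.16 (adjusted p = 2.21e-05). *Tnrc6a*, a scaffold of the silencing complex, read 7.70, 7.68 and 7.43 at WT PND 0 and 5.27, 5.51 and 4.88 at WT PND 3, a change of -2.38 ± 0.20 (adjusted p = 1.27e-08). *Dicer1*, the enzyme that frees the mature strand, read 7.79, 7.61 and 7.57 at PND 0 and 6.20, 6.31 and 6.32 at PND 3, a change of -1.38 ± 0.13 (adjusted p = 7.53e-08). *Ago2*, the Argonaute that can cut targets, read 6.89, 6.63 and 6.85 at PND 0 and 5.54, 5.71 and 5.54 at PND 3, a change of -1.19 ± 0.12 (adjusted p = 7.53e-08). All 3 were lower in every PND 3 array than in any PND 0 array. Of the nuclear processing and export proteins, *Drosha* changed by -0.61 ± 0.14 (adjusted p = 0.00124), *Dgcr8* by -0.21 ± 0.16 (adjusted p = 0.291) and the exporter *Xpo5* by -0.85 ± 0.15 (adjusted p = 6.46e-05) in WT, all under 2-fold. Over the later steps, both genotypes had 0 calls between PND 3 and PND 10 and 1 lower call between PND 10 and PND 42, of the Dicer partner *Prkra* (-1.13 ± 0.13 in WT and -1.11 ± 0.13 in *Scnn1b*-Tg). Of all rows, 1.29% in WT and 1.09% in *Scnn1b*-Tg were called between PND 3 and PND 10. Between PND 10 and PND 42, 3.84% and 3.38% were called lower. Between genotypes no gene of the list was called at any age, beside 0.34% of all rows or less.

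Between PND 3 and PND 10, calls were few over the whole array. In WT 1 of the 73 was called, toward higher levels, beside 1.29% of all rows (1.05% higher). In *Scnn1b*-Tg none was called, beside 1.09% (limma, with 5 of 73 at an unadjusted p under 0.05, beside 14.3% of all rows). The ages did not overlap for 7 of the 73 genes in WT and 12 in *Scnn1b*-Tg, beside 23.4% and 19.9% of all rows. The WT gene was *Mir15a*, which read 4.10, 4.31 and 4.71 at PND 3 and 5.74, 6.35 and 4.83 at PND 10, a change of 1.26 ± 0.28 (adjusted p = 0.00857). In *Scnn1b*-Tg the *Mir15a* arrays at PND 10 read 4.84, 4.83 and 4.74, a change of 0.43 ± 0.28 (adjusted p = 0.564). The WT call rested on single arrays, since the change of *Mir15a* was 0.91 without WT PND 10 replicate 2 (adjusted p = 0.0882) and 1.13 without WT PND 3 replicate 1 (adjusted p = 0.0537). *Mir99ahg* went the same way in WT, from 4.99, 4.73 and 4.94 to 5.47, 6.44 and 5.42, a change of 0.89 ± 0.19 (adjusted p = 0.00546) that stayed under 2-fold, and WT PND 10 replicate 2 was its highest array too. In *Scnn1b*-Tg the gene with the lowest p was *Mir30d*, at -0.44 ± 0.13 (adjusted p = 0.0762).

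From PND 10 to PND 42 the *Mir680* genes rose more than any other of the 73. In each genotype 4 of the 73 were called, all toward higher levels, beside 5.54% of all rows called in WT (1.7% higher) and 5.17% in *Scnn1b*-Tg (1.79% higher). The ages did not overlap for 29 of the 73 genes in WT and 22 in *Scnn1b*-Tg, beside 44.1% and 37.9%. *Mir680-2* read 4.73, 4.72 and 4.67 at WT PND 10 and 8.09, 8.91 and 7.51 at WT PND 42, a change of 3.46 ± 0.57 (adjusted p = 8.45e-05). In *Scnn1b*-Tg it read 4.54, 4.58 and 4.32 at PND 10 and 9.67, 7.67 and 5.45 at PND 42, a change of 3.11 ± 0.57 (adjusted p = 0.000258). The ages did not overlap, but the *Scnn1b*-Tg arrays at PND 42 spanned over 4 log2 units.

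*Mir680-1* read 3.68, 3.92 and 3.81 at WT PND 10 and 6.05, 7.91 and 5.29 at WT PND 42, a change of 2.61 ± 0.69 (adjusted p = 0.00619), and in *Scnn1b*-Tg 3.53, 3.62 and 3.76 at PND 10 and 8.71, 5.99 and 4.02 at PND 42, a change of 2.61 ± 0.69 (adjusted p = 0.00638). *Mir680-3* read 7.80, 8.34 and 6.99 at WT PND 42, a change of 1.30 ± 0.38 (adjusted p = 0.0107) from PND 10, and 8.80, 7.24 and 6.69 at *Scnn1b*-Tg PND 42, a change of 1.46 ± 0.38 (adjusted p = 0.00487). *Mir680-1* reached the threshold at PND 42 alone, so the choice favoured its rise. Its adjusted p only sets the size of the change beside the spread. The order of the PND 42 arrays was the same for the 3 genes. WT replicate 2 was the highest and replicate 3 the lowest in WT, and *Scnn1b*-Tg replicate 1 was the highest and replicate 3, for which the labels name 1 animal, the lowest.

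The size of the *Mir680* changes depended on these arrays. Without WT PND 42 replicate 2 the WT changes were 3.10 for *Mir680-2* (adjusted p = 0.0011), 1.87 for *Mir680-1* (adjusted p = 0.0594) and 0.99 for *Mir680-3* (adjusted p = 0.0805), so that only *Mir680-2* was still called. Without *Scnn1b*-Tg PND 42 replicate 1 the changes in *Scnn1b*-Tg were 2.08 for *Mir680-2* (adjusted p = 0.000707), 1.37 for *Mir680-1* (adjusted p = 0.054) and 0.85 for *Mir680-3* (adjusted p = 0.0464). Without *Scnn1b*-Tg PND 42 replicate 3 the *Scnn1b*-Tg changes were 4.19 for *Mir680-2*, 3.72 for *Mir680-1* and 1.91 for *Mir680-3*. The PND 0 group means of the *Mir680* genes lay above those of PND 3 in both genotypes, with *Mir680-2* at 5.73, 5.33 and 5.36 in WT against 4.56, 4.32 and 4.83.

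**Figure D5:**
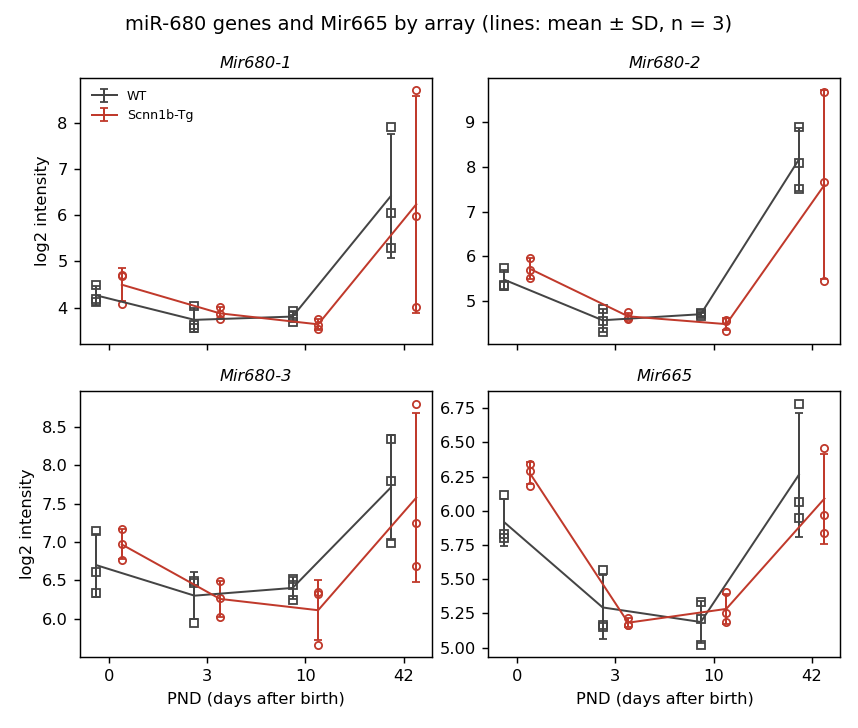
log2 intensity (vertical axes, with different ranges) of *Mir680-1*, *Mir680-2*, *Mir680-3* and *Mir665* at PND 0, 3, 10 and 42 in WT (squares) and *Scnn1b*-Tg (circles); each point is an array, and lines join group means with SD bars (n = 3). All 4 are higher at PND 42 than at PND 10, and the *Mir680* genes spread widely among the PND 42 arrays, from 5.45 to 9.67 for *Mir680-2* in *Scnn1b*-Tg.

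The fourth call from PND 10 to PND 42 differed by genotype. In WT it was *Mir665*, which read 5.21, 5.33 and 5.02 at PND 10 and 5.94, 6.78 and 6.06 at PND 42 and changed by 1.08 ± 0.18 (adjusted p = 9.37e-05), and by 0.81 ± 0.18 (adjusted p = 0.00152) in *Scnn1b*-Tg. Without WT PND 42 replicate 2 the WT change of *Mir665* was 0.82, and without WT PND 10 replicate 3 it was 0.99. In *Scnn1b*-Tg it was *Mir6516*, which read 6.93, 7.32 and 6.70 at PND 10 and 7.37, 7.78 and 9.38 at PND 42 and changed by 1.19 ± 0.43 (adjusted p = 0.038), while WT read 7.16, 7.53 and 7.20 at PND 10 and 7.83, 6.15 and 7.93 at PND 42. Its *Scnn1b*-Tg call rested on *Scnn1b*-Tg PND 42 replicate 3, without which the change of *Mir6516* was 0.59 (adjusted p = 0.273), and the call was also lost without *Scnn1b*-Tg PND 10 replicate 1 (1.17) or replicate 3 (1.05) and under 5 of the other settings. *Mir6516* was thus highest in the array where the *Mir680* genes were lowest, and in WT PND 42 replicate 2 it was lowest where they were highest. Over the same interval 4 of 4 markers of dividing cells fell in both genotypes, with mean levels of 5.20 to 5.36 in WT and 5.28 to 5.67 in *Scnn1b*-Tg at PND 42. Of 3 erythroid markers 2 fell in both, and 3 of 6 smooth muscle and 3 of 4 skeletal muscle markers fell in *Scnn1b*-Tg. The part of these markers in the microRNA changes was not tested.

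Between PND 0 and PND 42, WT arrays gave 4 higher and 7 lower calls, beside 11.4% of all rows (1.71% higher and 9.73% lower). *Scnn1b*-Tg arrays gave 4 and 10, beside 11.2% (2.48% higher and 8.7% lower). The ages did not overlap for 41 genes in WT and 45 in *Scnn1b*-Tg, beside 63.9% and 58.1%. Where quantile normalization was repeated the WT counts were 8 and 7. The genes that fell were among those that had fallen by PND 3, with *Mir145a* at -2.63 ± 0.23 (adjusted p = 1.47e-08) in WT and -3.28 ± 0.23 (adjusted p = 7.57e-10) in *Scnn1b*-Tg, with *Mir27a* at -1.55 ± 0.19 (adjusted p = 8.11e-07) and -1.50 ± 0.19 (adjusted p = 1.20e-06). Without 1 array, *Mir15a* (-0.96, WT PND 0 replicate 2) and *Mir382* (-0.99, WT PND 0 replicate 1) missed 2-fold in WT, and *Mir329* (-0.83) and *Mir382* (-0.91) missed it in *Scnn1b*-Tg without *Scnn1b*-Tg PND 0 replicate 1. The higher calls were *Mir6516*, *Mir680-1* and *Mir680-2* in both genotypes, with *Mir680-3* in WT and *Mir666* in *Scnn1b*-Tg. In *Scnn1b*-Tg the call of *Mir680-1* ended under 5 of the other settings and without any of 5 single arrays, with a change of 0.51 (adjusted p = 0.412) without *Scnn1b*-Tg PND 42 replicate 1. *Mir680-2* changed by 0.84 without that array (adjusted p = 0.0882), and *Mir666* by 0.88 without replicate 3. In WT the call of *Mir680-3* ended without WT PND 42 replicate 2 (0.69, adjusted p = 0.152) and without 3 other arrays in turn. *Mir6516* changed by 1.54 ± 0.43 (adjusted p = 0.00446) in WT and 2.14 ± 0.43 (adjusted p = 0.000275) in *Scnn1b*-Tg.

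Genotypes were compared at each age to ask whether the airway disease of *Scnn1b*-Tg mice reached these genes. None of the 73 was called at PND 0, 3, 10 or 42 (limma), beside 0.0138%, 0.0184%, 0.151% and 0.34% of all rows (0.0459% toward lower *Scnn1b*-Tg levels at PND 10), and 10, 2, 5 and 2 of the 73 had an unadjusted p under 0.05, beside 4.54%, 7.35%, 8.65% and 10.3% of all rows. The differences ran from -0.35 to 0.84 log2 at PND 0, from -0.41 to 1.00 at PND 3, from -0.84 to 0.21 at PND 10 and from -0.57 to 0.87 at PND 42. At PND 0 *Mir126a* was the furthest apart for its spread, with WT arrays at 4.10, 4.34 and 4.35 and *Scnn1b*-Tg arrays at 4.82, 5.13 and 5.35. The genotypes did not overlap for 14 of the 73 genes at PND 0, beside 12.5% of all rows, for 3 at PND 3 (11.3%), 10 at PND 10 (17.3%) and 2 at PND 42 (10.7%). *Mir126a* was among the 14 and differed by 0.84 ± 0.11 log2, under 2-fold, and since *Mir126a* entered the list only through that *Scnn1b*-Tg group no test is given. *Mir99ahg* was higher in every *Scnn1b*-Tg array at PND 0, by 0.71 ± 0.19 (adjusted p = 0.423), and lower in every one at PND 10, by -0.65 ± 0.19 (adjusted p = 0.144).

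At PND 3 *Mir18* read 4.52, 4.87 and 4.59 in WT and 6.42, 6.15 and 4.42 in *Scnn1b*-Tg, a difference of 1.00 ± 0.43 (adjusted p = 0.619) with overlapping arrays and an interval of 0.12 to 1.89 (95%). At PND 42 *Mir672* read 5.24, 5.30 and 4.82 in WT and 4.91, 4.55 and 4.55 in *Scnn1b*-Tg, a difference of -0.45 ± 0.12, and it had entered the list through that WT group alone. At PND 10 *Mir15a* read 5.74, 6.35 and 4.83 in WT and 4.84, 4.83 and 4.74 in *Scnn1b*-Tg, a difference of -0.84 ± 0.28 (adjusted p = 0.253) with an interval of -1.42 to -0.25, which became a call without WT PND 10 replicate 3. The *Mir680-2* difference at PND 42, -0.57 ± 0.57 (adjusted p = 0.824), became a call toward lower *Scnn1b*-Tg values without *Scnn1b*-Tg PND 42 replicate 1. The intervals of *Mir18* and *Mir15a* do not exclude a 2-fold difference.

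Whether an age change itself differed between genotypes was tested for the 3 consecutive intervals, and none of the 73 genes was called, beside 0%, 0.00918% and 0.225% of all rows, with 10, 4 and 5 of the 73 at an unadjusted p under 0.05 (limma), beside 4.75%, 6.64% and 9.85% of all rows. From PND 0 to PND 3 the *Scnn1b*-Tg change minus the WT change was -0.85 ± 0.33 for *Mir145a* and -0.91 ± 0.15 for *Mir126a*, given as a description since both were chosen through PND 0. *Mir99ahg* from PND 3 to PND 10 differed by -0.71 ± 0.27 (adjusted p = 0.624), and *Mir672* from PND 10 to PND 42 by -0.44 ± 0.17. A difference between genotypes in these age changes was therefore not shown.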

How the data were processed

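The log2 values were made by the authors before they were deposited: RMA with background correction, quantile normalization and median polish run in Partek (the labels give version 6.5), so that each transcript cluster has 1 value. Quantile normalization sets the arrays to a like distribution, so each change is relative to all rows. The rows that name exactly 1 gene (21789 of 35556) were tested, and 1621 rows that name several genes and 12146 that name none were left out of the tests. Groups came from the labels, with 3 arrays in each of 8 groups. A model with 1 mean per group was fitted over the 24 arrays with limma 3.58.1 (R 4.3.3; 16 residual degrees of freedom), and p-values were adjusted (Benjamini-Hochberg) within each of 15 contrasts. A row was called at an adjusted p of 0.05 or less and a change of 2-fold or more. SE and 95% intervals come from that fit, and every adjusted p in the text is limma's. The number of arrays limits the precision. Named were all genes called in a contrast where there were 10 or fewer, otherwise the 10 with the largest change in each direction, the gene of lowest p where none was called, and the 10 brightest. Genes named as hosts, as sharing a seed or a transcript, or for a call that came and went were added. The members, lists and rules were chosen with earlier results of these data known.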

Additional observations from a re-analysis of the deposited data

How the results depend on the processing

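Counts of the 73 genes called were recomputed under 12 other settings and with each of the 24 arrays left out. With no fold threshold, an adjusted p alone called 43 WT and 49 *Scnn1b*-Tg genes between PND 0 and PND 3, 2 WT genes between PND 3 and PND 10, 21 WT and 14 *Scnn1b*-Tg genes between PND 10 and PND 42, 46 WT and 49 *Scnn1b*-Tg genes between PND 0 and PND 42, and 1 gene between genotypes at PND 0. That gene, *Mir126a*, was chosen through those arrays, so its count is a description and no test. With the compared arrays fitted alone, 0 were called from PND 3 to PND 10 in WT and 2 from PND 10 to PND 42 in *Scnn1b*-Tg, where fewer arrays entered the fit. Leaving out 1 array gave 12 to 14 WT and 16 to 19 *Scnn1b*-Tg calls between PND 0 and PND 3, and 0 to 2 from PND 3 to PND 10 in WT. It gave 1 to 7 from PND 10 to PND 42 in WT, the lowest without WT PND 42 replicate 2 and the highest without replicate 3, and 2 to 4 in *Scnn1b*-Tg, the lowest without *Scnn1b*-Tg PND 42 replicate 1. From PND 0 to PND 42 it gave 10 to 15 in WT and 12 to 16 in *Scnn1b*-Tg. It gave 0 to 1 for the genotype comparisons at PND 10 and PND 42 and 0 to 1 for the genotype difference of the first interval (without *Scnn1b*-Tg PND 0 replicate 1), the last again *Mir126a* and a description only. With replicate number as a block, the same 12 genes in WT and 18 in *Scnn1b*-Tg were called from PND 0 to PND 3, and no other count changed. Same-numbered arrays deviated together (all correlations above 0.1) in 2 of 12 comparisons, over a range of -0.255 to 0.299, so the numbers were not taken to pair the samples. Of 72 changes of single genes followed through these settings, none reversed. For the 64 that were called, 2228 pairs of gene and setting kept the call and 76 lost it. For the 8 that were not, 286 pairs stayed without a call and 2 gained one. The cause of these losses and gains was not tested. Leaving out an array outside the compared groups keeps the log2 change as it was, and an adjusted p alone cannot lose a call. Many kept calls were thus nearly fixed in advance, and these counts do not measure how firm the calls are.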
